A study of Mus musculus with 16 samples.

Results

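miR-221 and miR-222 are a pair of mouse microRNAs that share the same seed and are best known for acting on Kit, the receptor of stem cell factor (SCF). They were taken by name, as mmu-miR-221 and mmu-miR-222, and make up 2 of the 577 miRNAs and 4 of the 1712 miRNA probes on the arrays used. Small RNA from bone marrow cultures of Balb/c mice was measured on 16 one-colour arrays, 4 for each of 4 groups. The medium of all groups held 5 ng/ml IL3 together with 20 ng/ml SCF, so every sample had been exposed to the ligand of Kit. The progenitors were Kit-positive (CD117+) cells separated on magnetic columns at day 6, so this group was selected on the protein that the pair acts on. BMMC were bone marrow-derived mast cells after 4 weeks of culture, described as immature. MMC were mucosal-type mast cells, made from BMMC with IL9 and TGFbeta over 5 further days. In the IgE-crosslinked BMMC, anti-DNP IgE had been loaded and DNP antigen was present for 2 hours. No arrays of BMMC kept 5 days longer without IL9 and TGFbeta, or loaded with IgE without antigen, are among the samples analysed here, so cytokines and added culture time, or IgE and antigen, cannot be told apart.

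A microRNA pairs through its seed, the bases at positions 2 to 8, with sites in messenger RNAs and lowers their translation or stability. In human erythroid and endothelial cells miR-221 and miR-222 were shown to act on KIT, and in human tumour cells on CDKN1B, which encodes the cell cycle inhibitor p27Kip1. Mast cells keep Kit throughout life and depend on SCF for growth and survival. In mouse mast cells both miRNAs have been reported to rise on activation, with effects of miR-221 on the cell cycle, adhesion and degranulation.

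The mature sequences are shown to make clear what the miRNAs share and where they part. They are RefSeq's for GRCm38.p6, 5′ to 3′, with the seed in capitals. The array names carry no arm suffix, and the 3p arm is the one these names stood for.
mmu-miR-221-3p: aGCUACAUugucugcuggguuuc
mmu-miR-222-3p: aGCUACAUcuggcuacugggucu
Each is 23 bases long. The first 8 bases are the same in both, and 3 of the 15 bases that follow are identical, so 11 of 23 positions match in all. The seed pairs with the letters AUGUAGC. RefSeq's table lists 3 mouse miRNAs with this seed, of which these 2 are on the array; mmu-miR-1928 is the other and was not measured.

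The hairpins are shown because they place both miRNAs in a single stretch of chromosome X, on the minus strand. Capitals mark the mature 3p arm.
Mir221: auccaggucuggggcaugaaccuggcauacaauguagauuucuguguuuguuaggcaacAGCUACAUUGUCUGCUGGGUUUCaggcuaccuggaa
Mir222: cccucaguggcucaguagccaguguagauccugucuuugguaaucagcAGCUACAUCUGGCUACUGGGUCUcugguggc
Mir221 lies at chrX:19146294-19146388 and Mir222 at chrX:19146893-19146971 (GRCm38.p6), with 504 bases between them. No other annotated gene overlaps either hairpin. The nearest is the long non-coding RNA gene Gm14636, 9499 bases away.

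Between 140 and 225 miRNAs per array were well above background by the scanner software, and the arrays differed in overall brightness. Intensities were divided by each array's 75th percentile over the 205 probes well above background on all 16 arrays, and log2 was taken. These scale factors were on average 2.01 log2 units higher on BMMC than on progenitor arrays, and 0.03 lower on IgE-crosslinked than on progenitor arrays. The 2 slides each carried 2 arrays of every group. miR-142-3p and miR-142-5p, found across blood cells, were well above background on all 16 arrays. Well above background on progenitor arrays alone were miR-451 (erythroid), on 4, and miR-126-3p (endothelial and stem cells), on 3, against 0 arrays in the other groups. miR-223 (granulocytes and monocytes) had a mean log2 scaled intensity of 12.35 in progenitors, 8.23 in BMMC, 7.39 in MMC and 8.50 after IgE-crosslinking. miR-150 (lymphoid) was above background on 0, 4, 1 and 3 arrays in that order. Its mean log2 scaled intensities were 4.53, 4.35, 3.56 (the floor set for all values) and 4.14, so highest in progenitors. Under this scaling BMMC and progenitors did not differ (-0.18, adjusted p = 0.633, limma). The weakest scaled signal read as well above background was higher on progenitor than on BMMC arrays. These counts therefore do not rank the groups by level. miR-144 (erythroid), miR-143 and miR-145 (stromal) were above background on 0 arrays of any group. No miRNA was taken as unique to mast cells, and Kit itself was not measured, so the mast cell label was not checked. The part of these markers in the differences below was not tested.

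miR-221 and miR-222 were both well above background on all 16 arrays, and none of their spots was saturated. Each has 2 probes of 10 spots per array, and the brighter probe represents the miRNA below. Before any scaling, the scanner software's processed signal of miR-221 was 389 ± 49.9 in progenitors and 1114 ± 103 in BMMC. It was 668 ± 54.7 in MMC and 346 ± 47.6 after IgE-crosslinking (SD, n = 4 arrays each). Unscaled miR-222 was 147 ± 32.3, 305 ± 67.1, 156 ± 5.43 and 100 ± 6.77 in the same order. These unscaled values are highest in BMMC, the group with the highest scale factors.

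After scaling, the log2 intensity of miR-221 was 9.28, 9.61, 9.23 and 9.23 on progenitor arrays 1 to 4, with a mean of 9.34 ± 0.18 (SD, n = 4). In BMMC it was 8.57, 8.80, 8.91 and 9.13, with a mean of 8.85 ± 0.23. Every BMMC array thus lay below every progenitor array. In MMC it was 9.14, 9.26, 9.08 and 9.03 (mean 9.13 ± 0.10), and after IgE-crosslinking 9.17, 9.20, 9.17 and 9.23 (mean 9.19 ± 0.026). The IgE-crosslinked arrays were the tightest group of miR-221 and lay above every BMMC array, while MMC overlapped with BMMC. By mean scaled level the order was progenitor, IgE-crosslinked BMMC, MMC, BMMC. No neighbours in this order differed at an adjusted p under 0.05 in the limma fit.

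miR-222 on progenitor arrays 1 to 4 had a log2 scaled intensity of 7.59, 8.26, 7.73 and 8.07 (mean 7.91 ± 0.31). In BMMC it was 7.31, 6.62, 6.86 and 7.06 (mean 6.96 ± 0.29). The progenitor arrays fell apart by slide, with replicates 2 and 4 on slide 1 above replicates 1 and 3 on slide 2, yet all were above BMMC. In MMC miR-222 was 6.94, 7.15, 7.02 and 7.03 (mean 7.04 ± 0.09), inside the range of BMMC. After IgE-crosslinking it was 7.34, 7.34, 7.57 and 7.41 (mean 7.41 ± 0.11), above all BMMC and MMC arrays and below all progenitor arrays. The order of mean scaled levels was the same as for miR-221. Here progenitors and IgE-crosslinked BMMC differed in the limma fit, and the neighbours further down did not.

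**Figure D1:**
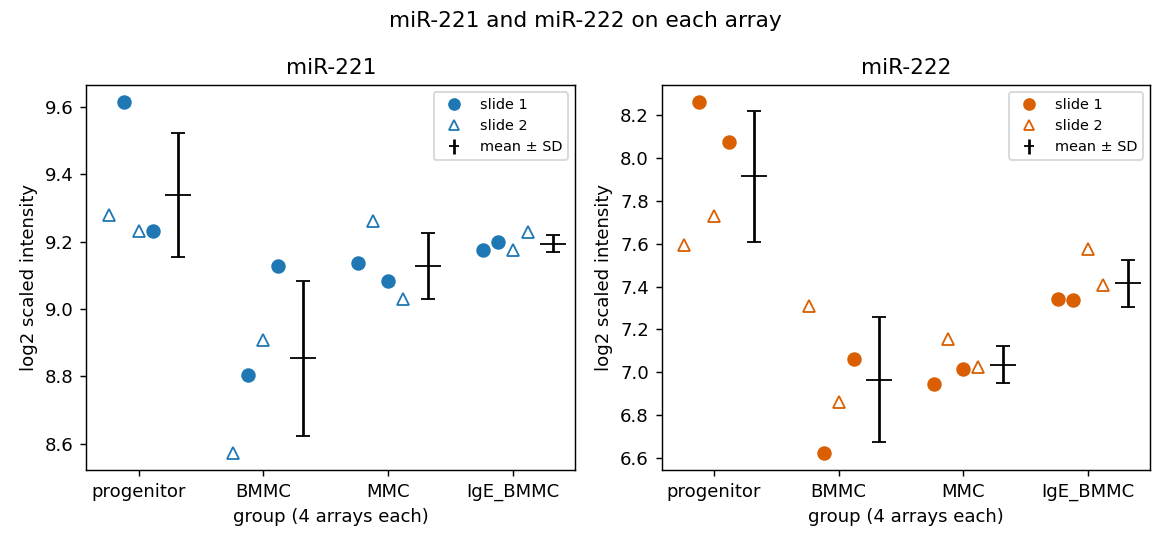
Log2 scaled intensity of miR-221 (left) and miR-222 (right) on each of 4 arrays per group, replicates 1 to 4 from left to right, with filled circles for slide 1, open triangles for slide 2 and bars for the mean ± SD. Under the scaling by detected probes shown here progenitors have the highest means (9.34 and 7.91) and BMMC the lowest (8.85 and 6.96); with the percentile of all probes or with no scaling, and for miR-222 with quantile normalisation, progenitors are not the highest.

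The comparison of BMMC with progenitors sets 4-week mast cells beside Kit-positive precursors separated on columns. No such separation is listed for BMMC, so selection on Kit and time in culture cannot be told apart. miR-221 was 1.40-fold lower in BMMC (log2 difference -0.49, SE 0.11, 95% interval -0.72 to -0.25, adjusted p = 0.00125, limma) and miR-222 was 1.93-fold lower (-0.95, SE 0.15, 95% interval -1.28 to -0.62, adjusted p = 8.3e-05), but both were higher in BMMC with the percentile of all probes (1.06 and 0.60) and with no scaling (1.52 and 1.06). The groups of arrays did not overlap for either miRNA. Of 217 miRNAs tested, 66.4% passed in either direction, 21.2% as higher and 45.2% as lower in BMMC, and 56.7% had groups that did not overlap, so a call or a gap of this kind was common. With the percentile of all probes, 123 of 155 calls were higher in BMMC, against 46 of 144 here; with quantile normalisation it was 106 of 165. The p-values measure the spread between samples that the design text calls biological replicates; it does not say whether they came from separate animals or cultures. In such bulk samples fewer cells that hold a miRNA and less of it per cell cannot be told apart.

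Because the direction turned with the scaling, the differences were also set against the median of all tested miRNAs, which stood at -0.30 for BMMC minus progenitor. Relative to that median miR-221 was at -0.19 and miR-222 at -0.65. Over the 5 scalings the relative difference ran from -0.65 to 0.87 for miR-221, which did not settle a side, and from -0.65 to 0.29 for miR-222, which was below the median in all but the normexp correction. Within slide 1 the log2 difference of miR-222 was -1.32 and within slide 2 it was -0.58, while miR-221 gave -0.46 and -0.51, the first of these no longer past the threshold (adjusted p = 0.0788, limma).

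The comparison of MMC with BMMC covers 5 further days of culture with IL9 and TGFbeta, where cytokines and time cannot be told apart. miR-221 was 0.27 log2 higher in MMC (SE 0.11, 95% interval 0.04 to 0.51, adjusted p = 0.0851, limma) and miR-222 0.07 higher (SE 0.15, -0.26 to 0.40, adjusted p = 0.933), so neither passed; both read lower in MMC with the percentile of all probes (-0.10 and -0.30) and with no scaling (-0.74 and -0.94), and miR-222 also with quantile normalisation (-0.20). In this comparison 20.8% of 207 tested miRNAs passed, 16.9% as higher and 3.86% as lower, and 34.3% had groups without overlap. Of the 43 calls 35 were higher; with the percentile of all probes 7 of 21 calls were higher. miR-221 passed without progenitor array 2 or without BMMC array 4, at 0.27 and 0.37. The values of miR-222 scattered more in BMMC (SD 0.29) than in MMC (SD 0.09).

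IgE-crosslinking is the comparison in which activated mast cells are set beside resting BMMC. miR-221 was 1.27-fold higher after IgE-crosslinking (log2 difference 0.34, SE 0.11, 95% interval 0.11 to 0.57, adjusted p = 0.0334, limma) and miR-222 1.37-fold higher (0.45, SE 0.15, 95% interval 0.12 to 0.78, adjusted p = 0.0474). All 4 IgE-crosslinked arrays were above all 4 BMMC arrays for both. Of 207 tested miRNAs 25.6% passed, 18.4% as higher and 7.25% as lower, and 28.5% had groups that did not overlap. Of the 53 calls 38 were higher; with the percentile of all probes it was 8 of 39. miR-221 ranked 41 and miR-222 ranked 29 from the highest of the 207 differences, whose median was 0.01. Neither passed with the percentile of all probes (0.12, adjusted p = 0.862, and 0.23, adjusted p = 0.680, limma). With quantile normalisation miR-222 passed (0.45, adjusted p = 0.0370) and miR-221 did not (0.26, adjusted p = 0.0985). With normexp both passed (0.34 and 0.69). Both turned with no scaling (-1.69 and -1.58), where the median of all tested was -1.82. Relative to the median they were above it in every scaling but normexp (-0.58 and -0.23).

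These calls sat near the threshold. The call for miR-222 was lost with slide as a block (adjusted p = 0.0557, limma) and with the replicate number as a block (adjusted p = 0.0868). The call for miR-221 was lost without BMMC array 1, 2 or 3 or without any of the 4 IgE-crosslinked arrays, with adjusted p-values up to 0.0910, and its log2 difference ran from 0.25 to 0.43. The call for miR-222 was lost without BMMC array 2, 3 or 4 or without any single MMC or IgE-crosslinked array, with adjusted p-values up to 0.145 and log2 differences from 0.34 to 0.57. Within slide 1 the differences were 0.22 for miR-221 and 0.50 for miR-222, and within slide 2 they were 0.46 and 0.40.

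IgE-crosslinked BMMC and MMC, both derived from BMMC by a further step, gave a different picture for each miRNA. miR-221 differed by 0.07 log2 (SE 0.11, 95% interval -0.17 to 0.30, adjusted p = 0.712, limma; -0.96 with no scaling) and its groups overlapped. miR-222 was 0.38 higher after IgE-crosslinking (SE 0.15, 95% interval 0.05 to 0.71, adjusted p = 0.0784; -0.64 with no scaling), which did not pass, although the groups did not overlap. Among 174 tested miRNAs 31.0% passed, 12.6% as higher and 18.4% as lower, and 43.7% had groups without overlap. miR-222 passed without progenitor array 2 (adjusted p = 0.0446), with quantile normalisation (0.65), with normexp (0.47) and when the other groups were left out of the fit (adjusted p = 0.00520). It stood above the median of all tested in all 5 scalings, by 0.14 to 0.49, whereas miR-221 stood at or below it, from -0.27 to -0.002.

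For MMC and progenitors, which of the pair passed depended on the scaling. Under the scaling by detected probes miR-222 was 1.84-fold lower in MMC (log2 difference -0.88, SE 0.15, 95% interval -1.21 to -0.55, adjusted p = 0.000132, limma), though it read higher with the percentile of all probes (0.30) and with no scaling (0.12). miR-221 was 0.21 lower (SE 0.11, 95% interval -0.44 to 0.02, adjusted p = 0.0945), and higher with the same alternatives (0.97 and 0.78). In both alternatives it was miR-221 that passed (adjusted p = 0.00480 and 4.1e-05, limma) and miR-222 that did not (adjusted p = 0.284 and 0.495). Of 189 tested miRNAs 73.0% passed, 29.6% as higher and 43.4% as lower, and 67.7% had groups without overlap, as miR-222 did. Scaling by the percentile of all probes made 112 of 152 calls higher, against 56 of 138 here. Relative to the median of all tested, miR-222 was lower in MMC in all 5 scalings, by 0.21 to 0.78 log2 in size, and miR-221 ran from -0.43 to 0.42. The miR-222 difference was -1.19 within slide 1 and -0.57 within slide 2.

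IgE-crosslinked and progenitor arrays had nearly the same scale factors. Their bright corner control spots differed, at 423 ± 137 on IgE-crosslinked and 1431 ± 160 on progenitor arrays (SD, n = 4 each). The part of this in the differences was not tested. miR-222 was 1.41-fold lower after IgE-crosslinking than in progenitors (log2 difference -0.50, SE 0.15, 95% interval -0.83 to -0.17, adjusted p = 0.00874, limma) and gave -0.53 with no scaling, but 0.82 with the percentile of all probes and 0.08 with quantile normalisation. miR-221 was at -0.14 (SE 0.11, 95% interval -0.38 to 0.09, adjusted p = 0.226; 1.18 with the percentile of all probes), and its groups just failed to overlap, at 9.23 in both when rounded. In this comparison 79.5% of 176 tested miRNAs passed, 28.4% as higher and 51.1% as lower, and 68.8% had groups that did not overlap. The percentile of all probes made 103 of 135 calls higher, against 50 of 140. The median of all tested was -0.39, so miR-222 lay 0.11 below it and miR-221 lay 0.25 above it. Within slide 2 miR-222 was at -0.17 and no longer passed (adjusted p = 0.387), against -0.83 within slide 1. The comparisons above share groups of arrays and are not independent of each other.

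**Figure D2:**
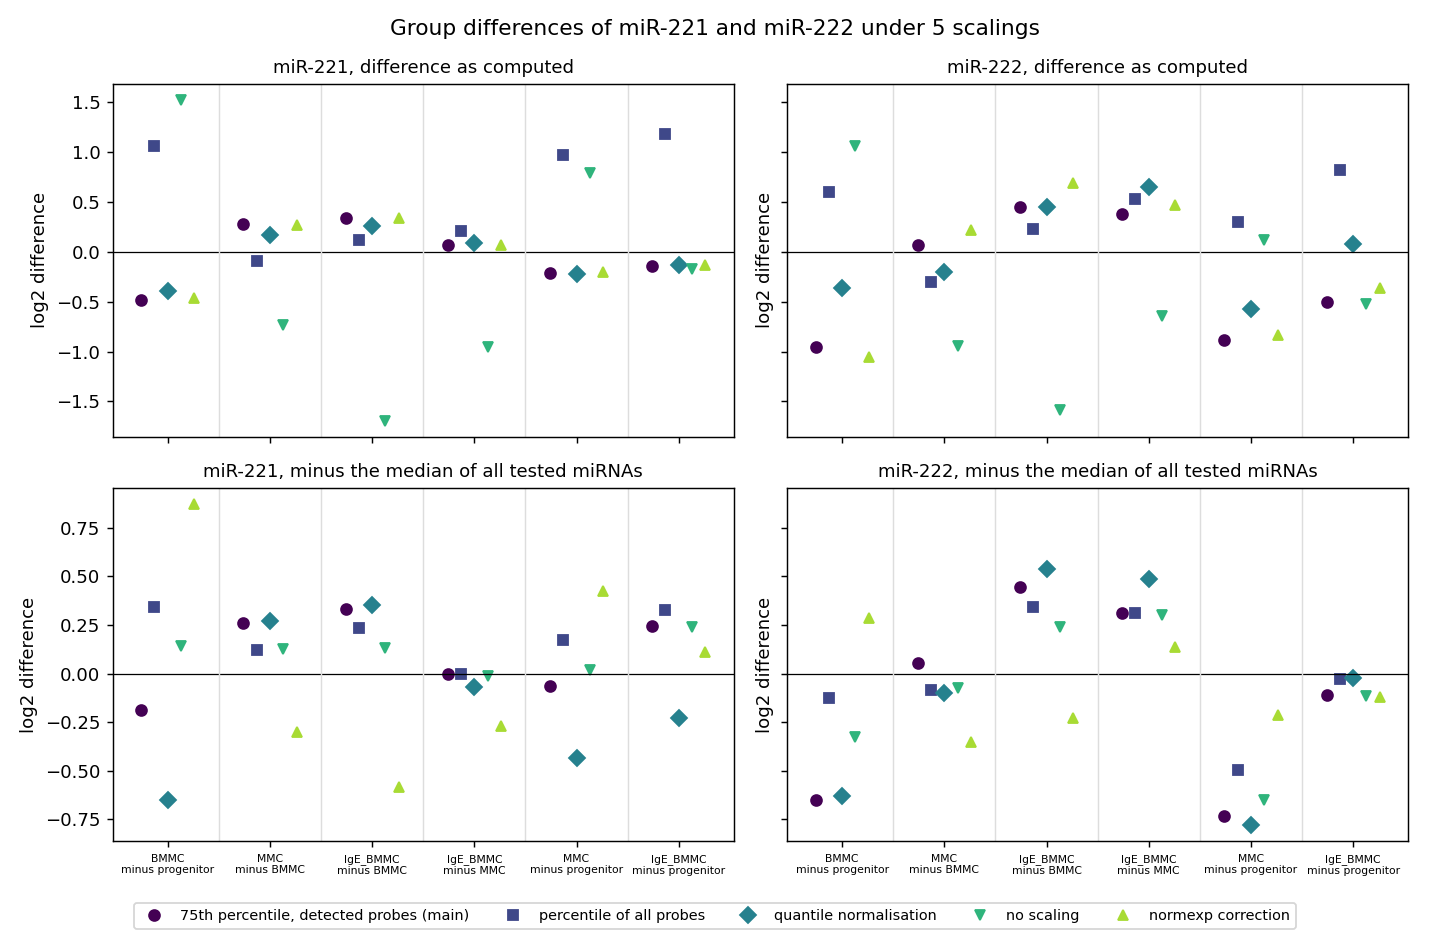
Log2 difference of miR-221 (left) and miR-222 (right) in the 6 group comparisons under 5 scalings, one symbol for each, as computed (top) and after subtracting the median of all tested miRNAs (bottom). In the top panels the sign changes in all 6 comparisons for both miRNAs, as in BMMC minus progenitor (miR-222 from -1.06 to 1.06); in the bottom panels miR-222 stays below 0 in MMC minus progenitor (-0.78 to -0.21) and above 0 in IgE-crosslinked BMMC minus MMC (0.14 to 0.49).

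**Figure D3:**
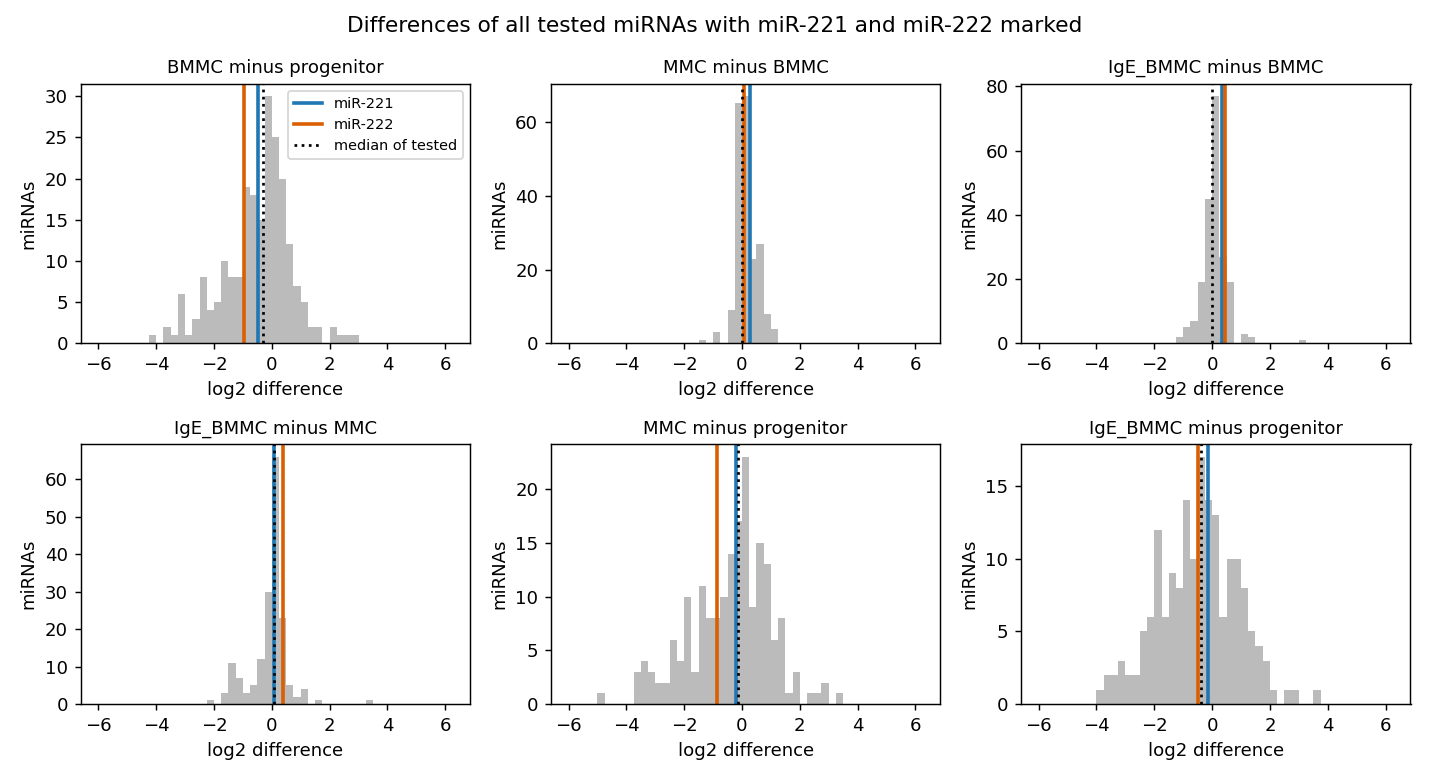
Number of tested miRNAs by log2 difference in each comparison under the scaling by detected probes, with miR-221 (blue), miR-222 (orange) and the median of all tested (dotted) marked. Both lie inside the bulk of the distribution in each panel; miR-222 ranks 157 of 217 from the highest in BMMC minus progenitor and 22 of 174 in IgE-crosslinked BMMC minus MMC, and over the 5 scalings all 12 differences of the pair change sign.

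The difference between miR-222 and miR-221 on the same array does not depend on the scale factor, although it does depend on background correction and on normalisation of the whole distribution. Its log2 value was -1.69, -1.35, -1.50 and -1.16 in progenitors (mean -1.42 ± 0.22) and -1.26, -2.18, -2.05 and -2.07 in BMMC (mean -1.89 ± 0.42). BMMC array 1 thus lay among the progenitors and the other BMMC arrays well below them. In MMC it was -2.19, -2.11, -2.07 and -2.00 (mean -2.09 ± 0.08), and after IgE-crosslinking -1.83, -1.86, -1.60 and -1.82 (mean -1.78 ± 0.12). MMC did not overlap with progenitors or with IgE-crosslinked BMMC. The sizes of these values compare different probes and say nothing of which miRNA is more abundant; only their shifts between groups are read here.

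From progenitors to MMC miR-222 shifted by -0.67 log2 against miR-221, a 1.59-fold change of the ratio (exact two-sided permutation p = 0.0286, adjusted over 6 pairs 0.0857). From MMC to IgE-crosslinked BMMC the shift was 0.31 (exact permutation p = 0.0286, adjusted 0.0857). These are the smallest p-values that 4 against 4 arrays allow, and after adjustment none of the 6 pairs passed. IgE-crosslinked BMMC minus progenitor gave -0.36 (exact permutation p = 0.0571, adjusted 0.114) and BMMC minus progenitor -0.47 (exact permutation p = 0.114, adjusted 0.171). MMC minus BMMC gave -0.20 (exact permutation p = 0.543, adjusted 0.651) and IgE-crosslinked minus resting BMMC 0.11 (exact permutation p = 0.686, adjusted 0.686), so activation did not separate the pair detectably.

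Other processing moved some of these shifts. With quantile normalisation, an alternative chosen after seeing the data, BMMC minus progenitor turned to 0.02 and IgE-crosslinked BMMC minus progenitor to 0.21. MMC minus progenitor was then -0.35 and IgE-crosslinked BMMC minus MMC 0.56, both still without overlap (exact permutation p = 0.0286, adjusted 0.0857). With normexp IgE-crosslinked minus resting BMMC was 0.36 and MMC minus BMMC -0.048, neither past the threshold.

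The shifts that involve BMMC rested in part on BMMC array 1. Without it BMMC minus progenitor was -0.67, IgE-crosslinked minus resting BMMC 0.32 and MMC minus BMMC 0.0059. The first and second of these then reached an adjusted exact permutation p of 0.0429. The MMC minus progenitor and IgE-crosslinked BMMC minus MMC shifts hold no BMMC array; their values and raw p stayed as they were, and their adjusted p moved to 0.0429 only through the adjustment over 6 pairs. Within slides 1 and 2 the MMC minus progenitor shift was -0.87 and -0.46, the IgE-crosslinked minus MMC shift 0.28 and 0.34, and the BMMC minus progenitor shift -0.87 and -0.06.

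**Figure D4:**
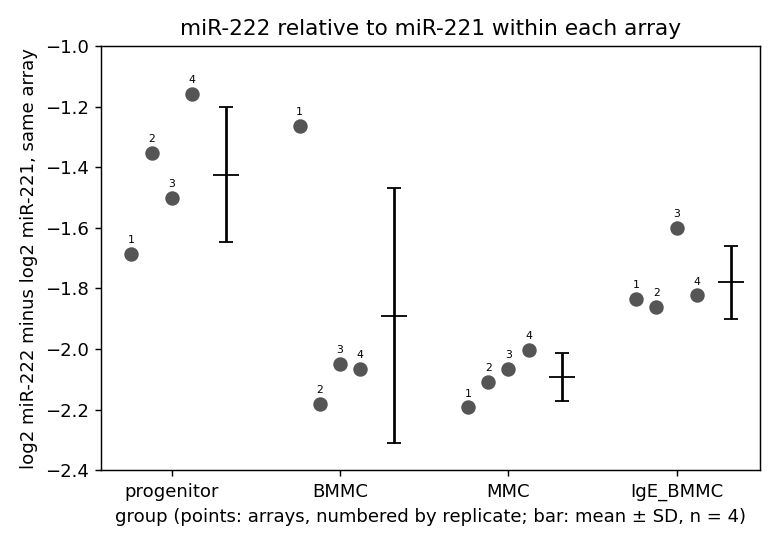
Log2 intensity of miR-222 minus that of miR-221 on the same array, for 4 arrays per group numbered by replicate, with bars for the mean ± SD. Progenitors have the highest mean (-1.42) and MMC the lowest (-2.09), and BMMC array 1 (-1.26) lies far from the other 3 BMMC arrays.

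Both probes of each miRNA moved together across groups. The probes of miR-221 carry 20 and 19 bases of the target in the array's annotation, and those of miR-222 carry 14 and 13. The brighter probe was the longer of the pair for each. Across 12 contrasts of the miRNAs the probes gave the same sign in 12, and the largest gap between them was 0.07 log2. Within an array the median coefficient of variation over 10 spots was 5.68% to 8.60% by probe. In the array's annotation both probes of a miRNA begin at the same lower coordinate. On the minus strand this is the end away from the shared first 8 bases. With 20 and 19 of the 23 bases of miR-221, its probes still reach into those shared bases. Whether a probe also binds the other miRNA was not tested.

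The fitted miRNAs whose 4 group means were most like those of miR-221 were miR-301a (root mean square difference of centred log2 means 0.044), miR-181c (0.053), miR-744 (0.079), miR-872 (0.096) and miR-484 (0.104), over 4 groups and 216 miRNAs compared. miR-872 was well above background on 1 progenitor array only. Most like miR-222 were miR-345-5p (0.092), miR-142-5p (0.102), let-7c-2* (0.134), mghv-miR-M1-2 (0.139, the array's name for a viral miRNA) and let-7d* (0.151). The viral entry was well above background on 2 progenitor and 3 MMC arrays only. miR-222 ranked 65 in likeness to miR-221, and miR-221 ranked 34 in likeness to miR-222, at 0.242. By group means the 2 miRNAs thus had many closer matches on the array than each other. This ranking takes no account of the spread between arrays.

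Other miRNAs reported to act on Kit, mostly in human cells, did not move as a block with the pair. The list held 8, counting miR-221 and miR-222. miR-34c was above background on 0 arrays and was not fitted. From progenitors to BMMC, 2 of 7 tested passed as higher and 3 as lower (median 0.15 against -0.30 over all tested), against 21.2% and 45.2% of all tested. With the percentile of all probes, and with no scaling, 6 passed as higher and 0 as lower, and with quantile normalisation 4 and 3. With normexp 2 passed as higher and 5 as lower. In that order the list medians were 1.06, 1.72, 0.89 and -1.06, against 0.72, 1.38, 0.26 and -1.34 over all tested. miR-34a (log2 difference 2.87) and miR-494 (0.74) rose, in all 5 scalings, while miR-193b (-1.75, but 0.26 with no scaling) fell, as miR-221 and miR-222 did under the scaling by detected probes. From BMMC to MMC, 0 of 7 passed as higher and 1 as lower, against 16.9% and 3.86% of all tested. The lower one was miR-193b at -1.43, below 0 in all 5 scalings. After IgE-crosslinking, miR-221 and miR-222 were the 2 of 7 that passed as higher, against 18.4% of all tested, and miR-494 was lower (-1.21, in all 5 scalings). With the percentile of all probes 0 of 7 passed as higher, and with no scaling 0 were higher and 6 lower. With normexp 5 passed as higher and 1 as lower. In that order the list medians were -0.15, -1.72 and 0.69, against -0.12, -1.82 and 0.92 over all tested. Against MMC, 1 of 6 passed as higher and 1 as lower, against 12.6% and 18.4% of all tested. These were miR-193b at 1.51 and miR-494 at -1.66, both with the same sign in all 5 scalings. In MMC minus progenitor 2 of 6 passed as higher, miR-34a (2.89) and miR-494 (1.19), and 2 as lower, miR-193b (-3.18) and miR-222. In IgE-crosslinked BMMC minus progenitor 2 of 6 passed as higher, miR-34a (2.82) and miR-193 (1.46, above background on 2 of 4 progenitor arrays), and 2 as lower, miR-193b (-1.67) and miR-222. Of all tested, 29.6% passed as higher and 43.4% as lower in MMC minus progenitor. In IgE-crosslinked BMMC minus progenitor the shares were 28.4% and 51.1%. Each list call in these comparisons, except those of miR-222, kept its sign in all 5 scalings.

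Of 7 miRNAs reported in mast cell activation, 5 passed as higher and 0 as lower after IgE-crosslinking of BMMC (median 0.45 against 0.01 over all tested), against 18.4% and 7.25% of all tested. miR-132 (log2 difference 3.20), a miRNA induced by CREB signalling, was higher in all 5 scalings, at 2.46 with normexp and 1.17 with no scaling. Its BMMC mean of 4.01 was near the log2 floor of 3.56, so the size of its difference is uncertain. The cluster partner of miR-132, miR-212 (0.56), passed in 3 of 5. miR-21 (1.01), often raised in inflamed and proliferating cells, passed in 3 of 5 and was at 0.056 with quantile normalisation and -1.02 with no scaling. miR-221 and miR-222 complete the count. With the percentile of all probes 2 of 7 passed as higher, with quantile normalisation 3 and with normexp 7. With no scaling 1 of 7 was higher and 6 were lower. In that order the list medians were 0.26, 0.37, 0.87 and -1.55, against -0.12, -0.09, 0.92 and -1.82 over all tested. With normexp the list median thus lay below that of all tested. Against MMC, 3 of 7 passed as higher and 0 as lower, against 12.6% and 18.4% of all tested. The 3 were miR-132 (3.44, at the floor on 1 MMC array), miR-212 (1.05) and miR-146a, a negative regulator of NF-kB signalling. miR-146a was at the floor on 3 of 4 MMC arrays, so the size of its difference is set by the floor and is not given. From BMMC to MMC 1 passed as higher, miR-21 (1.11), and 1 as lower, miR-212 (-0.49), against 16.9% and 3.86% of all tested. miR-21 passed in 2 of 5 scalings there and was at 0.056 with quantile normalisation and 0.099 with no scaling, and miR-212 passed in 3 of 5. From progenitors 5 of 7 fell in BMMC, 4 of 7 in MMC and 3 of 7 after IgE-crosslinking, with 2, 1 and 2 higher. Over all tested miRNAs the shares were 45.2%, 43.4% and 51.1% lower, and 21.2%, 29.6% and 28.4% higher. With the percentile of all probes 1 of 7 was lower in each comparison, and 4, 3 and 5 were higher. The list medians were then 0.71, 0.30 and 1.04, against 0.72, 0.79 and 0.85 over all tested.

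Among 8 miRNAs reported to act on Cdkn1b, miR-196a was not fitted. miR-24 rose with the pair after IgE-crosslinking of BMMC (0.49, except with no scaling), in a count of 3 higher and 1 lower of 7, against 18.4% and 7.25% of all tested. The lower one was miR-152 (-0.38), which read 1.26 with normexp. It was above background on 4 BMMC and 0 IgE-crosslinked arrays, at the floor on 3 of the latter. None of the 7, miR-24 included, passed as higher with the percentile of all probes. With no scaling 7 of 7 passed as lower, and with normexp 7 of 7 as higher. In that order the list medians were -0.03, -1.84 and 0.40, against -0.12, -1.82 and 0.92 over all tested. In BMMC minus progenitor 2 of 7 passed as higher, among them miR-24 (0.61, in all 5 scalings), and 3 as lower, miR-148a at -1.74 (0.27 with no scaling), miR-221 and miR-222, against 21.2% and 45.2% of all tested. This became 6 higher and 0 lower with the percentile of all probes and with no scaling. With normexp it was 1 higher and 6 lower. In that order the list medians were 1.09, 1.79 and -0.80, against 0.72, 1.38 and -1.34 over all tested. miR-24 was also the 1 of 7 that passed, as higher, in MMC minus BMMC (0.32, but -0.05 with the percentile of all probes and -0.69 with no scaling) and in IgE-crosslinked BMMC minus MMC (0.17, but -0.85 with no scaling). Over all tested miRNAs 16.9% and 12.6% passed as higher in these comparisons, and 3.86% and 18.4% as lower. MMC minus progenitor gave 1 higher and 3 lower of 7, against 29.6% and 43.4% of all tested. IgE-crosslinked BMMC minus progenitor gave 1 higher and 3 lower of 6, against 28.4% and 51.1%. With the percentile of all probes these list counts were 5 and 1, and 5 and 0. The list medians were then 0.75 and 1.06, against 0.79 and 0.85 over all tested.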

How the data were processed

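The values are the scanner intensity of each spot on one-colour (Cy3) miRNA arrays, as deposited by the authors; per the file headers they were extracted with Feature Extraction 9.5.1.1. Labelling started from 100 ng total RNA whose integrity number exceeded 8, per the labels. Groups of 4 arrays came from the sample titles. Spots of a probe were averaged without those the software marked as outliers, scaled, raised to a floor of 11.8 and turned to log2, and a miRNA was represented by its brightest probe. A miRNA was fitted where 3 or more arrays of some group read it well above background (217 of 577, 7 of them at the floor on all arrays) with limma 3.58.1 (lmFit, eBayes, all 16 arrays, 12 residual degrees of freedom) in R 4.3.3. Benjamini-Hochberg adjustment ran within each comparison over all tested miRNAs, with calls at an adjusted p under 0.05. The within-array difference used exact permutation tests coded with numpy 2.4.6. The 95% intervals used t quantiles from scipy 1.17.1. The fit was tested on simulated data. The authors' deposited log2 value table, rebuilt here to within 0.016 log2 as the total gene signal over the 75th percentile of all entries, centred on each entry's median, served as an alternative. Other alternatives were the percentile of all probes, quantile normalisation, no scaling, normexp (offset 50), no filter, slide or replicate number as a block, and each array left out. Array number and signal over background limit the precision, and no counts exist.

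The members, lists and tests were chosen with earlier results of these data known. The miRNAs named are the pair, the 5 fitted miRNAs nearest to each in centred group means, and up to 4 called members of each list by lowest adjusted p. Sequences and neighbouring genes come from RefSeq tables of GRCm38.p6. Probe lengths follow the array's mm9 annotation. miRNAs not fitted were left out of all tests.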

Additional observations from a re-analysis of the deposited data

Results flagged for a closer look

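In 3 of 20 groups of 4 arrays examined, a single array lay far from the others (its gap to the nearest array, as a share of the group's whole range, passed Dixon's critical value); chance alone marks about 1 in 20 groups. miR-221 on progenitor array 2 was 9.61 against 9.28 for the nearest array, a share of 0.875; on the other probe of miR-221 the same array was at 9.22 against 9.06, a share of 0.460, which did not pass. For miR-222 minus miR-221 within an array, BMMC array 1 was at -1.26 against -2.05, a share of 0.856. For the same quantity, IgE-crosslinked BMMC array 3 was at -1.60 against -1.82, a share of 0.855.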

How the results depend on the processing

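The sign of all 12 differences of the pair depends on how arrays of unequal brightness are scaled. With the percentile of all probes, the log2 differences were for miR-221 1.06 (BMMC minus progenitor), -0.096 (MMC minus BMMC), 0.12 (IgE-crosslinked minus resting BMMC), 0.97 (MMC minus progenitor) and 1.18 (IgE-crosslinked minus progenitor), and for miR-222 0.60, -0.30, 0.23, 0.30 and 0.82. With no scaling they were for miR-221 1.52, -0.74, -1.69 and 0.78 in the first 4 and -0.96 in IgE-crosslinked BMMC minus MMC, and for miR-222 1.06, -0.94, -1.58, 0.12 and -0.64. In the authors' deposited log2 table, miR-221 was at 0.48 in BMMC minus progenitor (adjusted p = 0.0859, limma, not called). It was at 0.37 (IgE-crosslinked minus resting, not called), 0.64 (MMC minus progenitor) and 0.85 (IgE-crosslinked minus progenitor). In the same order miR-222 was at 0.020, 0.46 (not called), -0.0075 (not called) and 0.48, with -0.028 in MMC minus BMMC. The unmarked values of that table are given for their sign, whether called or not. Quantile normalisation gave miR-221 0.26 in IgE-crosslinked minus resting BMMC (not called), and miR-222 -0.20 in MMC minus BMMC, 0.65 in IgE-crosslinked minus MMC (called) and 0.078 in IgE-crosslinked minus progenitor. Normexp made calls of 0.27 for miR-221 in MMC minus BMMC and 0.47 for miR-222 in IgE-crosslinked minus MMC, and the software's total gene signal a call of 0.43 for miR-221 in MMC minus BMMC. The cause was not tested.

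The IgE-crosslinked minus resting BMMC difference was no longer called with no filter on dim miRNAs (0.34 for miR-221, adjusted p = 0.106; 0.45 for miR-222, adjusted p = 0.149; 577 miRNAs tested), with only those groups fitted (0.34, adjusted p = 0.0699; 0.45, adjusted p = 0.0725; limma), and, for miR-222, with the floor doubled (0.45, adjusted p = 0.0574), the other probe (0.45, adjusted p = 0.0554) or slide as a block (0.45, adjusted p = 0.0557). Fitting only IgE-crosslinked BMMC and MMC made a call of 0.38 for miR-222. Slide 1 alone gave -0.46 for miR-221 in BMMC minus progenitor, and 0.22 and 0.50 for miR-221 and miR-222 in IgE-crosslinked minus resting BMMC; slide 2 alone gave 0.46 and 0.40 there, and -0.17 for miR-222 in IgE-crosslinked minus progenitor, none of them called, with 2 arrays a group. The within-array difference in IgE-crosslinked minus resting BMMC was -0.056 on slide 2, and with quantile normalisation, chosen after seeing the data, it turned to 0.023 in BMMC minus progenitor and 0.21 in IgE-crosslinked minus progenitor. Relative to the median of all tested, miR-221 moved to -0.19 in BMMC minus progenitor and to 0.25 in IgE-crosslinked minus progenitor, and miR-222 to -0.11 in the latter. Counts of called miRNAs moved by over 1.5 times from 43 in MMC minus BMMC to 21 (percentile of all probes), 150 (no scaling) and 153 (normexp). From 53 in IgE-crosslinked minus resting BMMC they moved to 196 (no scaling), 168 (normexp) and 30 (no filter), and from 54 in IgE-crosslinked minus MMC to 157 (no scaling) and 132 (normexp).

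Leaving out each array in turn gave miR-221 -0.58 to -0.39 in BMMC minus progenitor, 0.18 to 0.37 in MMC minus BMMC, 0.25 to 0.43 in IgE-crosslinked minus resting BMMC, 0.034 to 0.11 in IgE-crosslinked minus MMC, -0.26 to -0.12 in MMC minus progenitor and -0.18 to -0.053 in IgE-crosslinked minus progenitor. For miR-222 the ranges in this order were -1.07 to -0.84, -0.043 to 0.19 (below 0 without BMMC array 2), 0.34 to 0.57, 0.33 to 0.42, -0.99 to -0.76 and -0.61 to -0.38. For the within-array difference they were -0.67 to -0.37, -0.30 to 0.0059, 0.013 to 0.32, 0.25 to 0.34, -0.75 to -0.58 and -0.44 to -0.27. Counts of calls ran from 133 to 149, 34 to 62, 33 to 72, 44 to 70, 136 to 146 and 136 to 145, the lowest of the third, 33, without BMMC array 2 and 35 without IgE-crosslinked array 2.

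Replicate numbers did not pair the arrays: 8 of 24 same-numbered pairs had residuals correlated above 0.1 (median 0.043), and 4 of 16 arrays correlated best with their own number. With the replicate number as a block, miR-222 in IgE-crosslinked minus resting BMMC (0.45, adjusted p = 0.0868, limma) was no longer called, no other call of the pair changed, and the counts of calls were 138, 41, 46, 48, 139 and 141 against 144, 43, 53, 54, 138 and 140.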
